A study of Capra hircus with 6 samples.

Results

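The genes of the cell division cycle were examined in flank skin of Changthangi Pashmina goats with white, brown and black coats. The set was fixed as 46 named genes, 15 that serve DNA replication in S phase and 31 that serve mitosis, and a locus was taken as a member where its gene name in the deposited table equals the symbol. This found 45 of the 46 among the 26938 loci of the table, 15 S phase and 30 mitotic. HMMR, a spindle protein, has no locus under its symbol, but a locus named by its RefSeq gene ID is present and is described apart from the counts. RNA was sequenced from the skin of 6 females of one farm, each 26 months old, of which 2 had a white, 2 a brown and 2 a black coat. Each biopsy was a punch of shaved skin under local lignocaine, so follicles, epidermis, dermis, glands, vessels and immune cells were measured together.

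For each locus the authors give 1 FPKM value per colour (the fragments on a gene divided by its exon length and by the mapped fragments of the library), which combines the 2 goats. No value per goat and no error is therefore given here, no difference could be set against the spread between goats, and the fragment depth behind an FPKM is unknown. Every comparison below is a description of these values, with no test. Ratios of FPKM were taken on the log2 scale without a pseudocount, at loci with an FPKM above 0 in both colours and a mean over the 3 colours of at least 1, which all 45 members met. These limits left 13704 loci between white and black and 13708 in each of the other comparisons. Their median log2 ratio was 0.24 in white over black, -0.03 in brown over white and 0.21 in brown over black. Values below are unscaled unless a scale is named. Any 2 of the comparisons have a colour in common, so the 3 ratios of a gene are not independent. The keratins of the basal epidermis, KRT14 and KRT5, had mean levels of 9557 and 7788 FPKM, and the dermal proteoglycan DCN of 904 FPKM, as is usual in skin.

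In a mammalian cell, passage from G1 into S phase starts with cyclin E and the release of E2F transcription factors. Origins of replication are loaded with the MCM helicase in G1 and fired in S phase, when nucleotide synthesis and the sliding clamp PCNA are in demand. In G2 a second programme, driven by MYBL2 and FOXM1, supplies the cyclins, kinases, motors and kinetochore proteins of mitosis. Dividing cells of skin are found mainly in the basal layer of the epidermis, in the matrix of the growing hair follicle and in the sebaceous gland, and few cells elsewhere cycle. The level of a cell cycle transcript in a biopsy thus follows the share of cycling cells as well as the amount per cell, and the 2 cannot be told apart in bulk RNA.

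The cell cycle genes were highest in brown skin. Of the 45 members, 36 (80.0%) had their highest FPKM in brown, against 36.2% of the 13814 loci with a mean FPKM of at least 1. Of the S phase members 14 of 15 were highest in brown and 14 of 15 lowest in white, while 22 of 30 mitotic members were highest in brown and 23 of 30 (76.7%) lowest in black. Of all these loci 25.3% were lowest in white and 56.1% in black. The order brown, black, white was found for 13 of the 15 S phase genes (86.7%), 3 of the 30 mitotic genes and 14.8% of all loci. The order brown, white, black held for 19 mitotic genes (63.3%), 1 S phase gene (6.67%) and 21.4% of all loci. With the median ratio of all loci subtracted, 33 members were still highest in brown (73.3%, against 28.0% of loci) and 34 were lowest in white, 15 S phase and 19 mitotic, while black was lowest at 10 mitotic genes. With the median of 15 reference genes subtracted instead, 26 members were highest in brown (57.8%, against 16.0% of loci), among them 14 of the 30 mitotic ones, and black was lowest at 23 mitotic genes. On both scales the S phase genes highest in black were MCM2, CDT1 and CDC45, and the other 12 were highest in brown. White was lowest at all 15 on the former scale and at 13 on the latter, where CCNE2 and MCM7 were the exceptions.

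**Figure D1:**
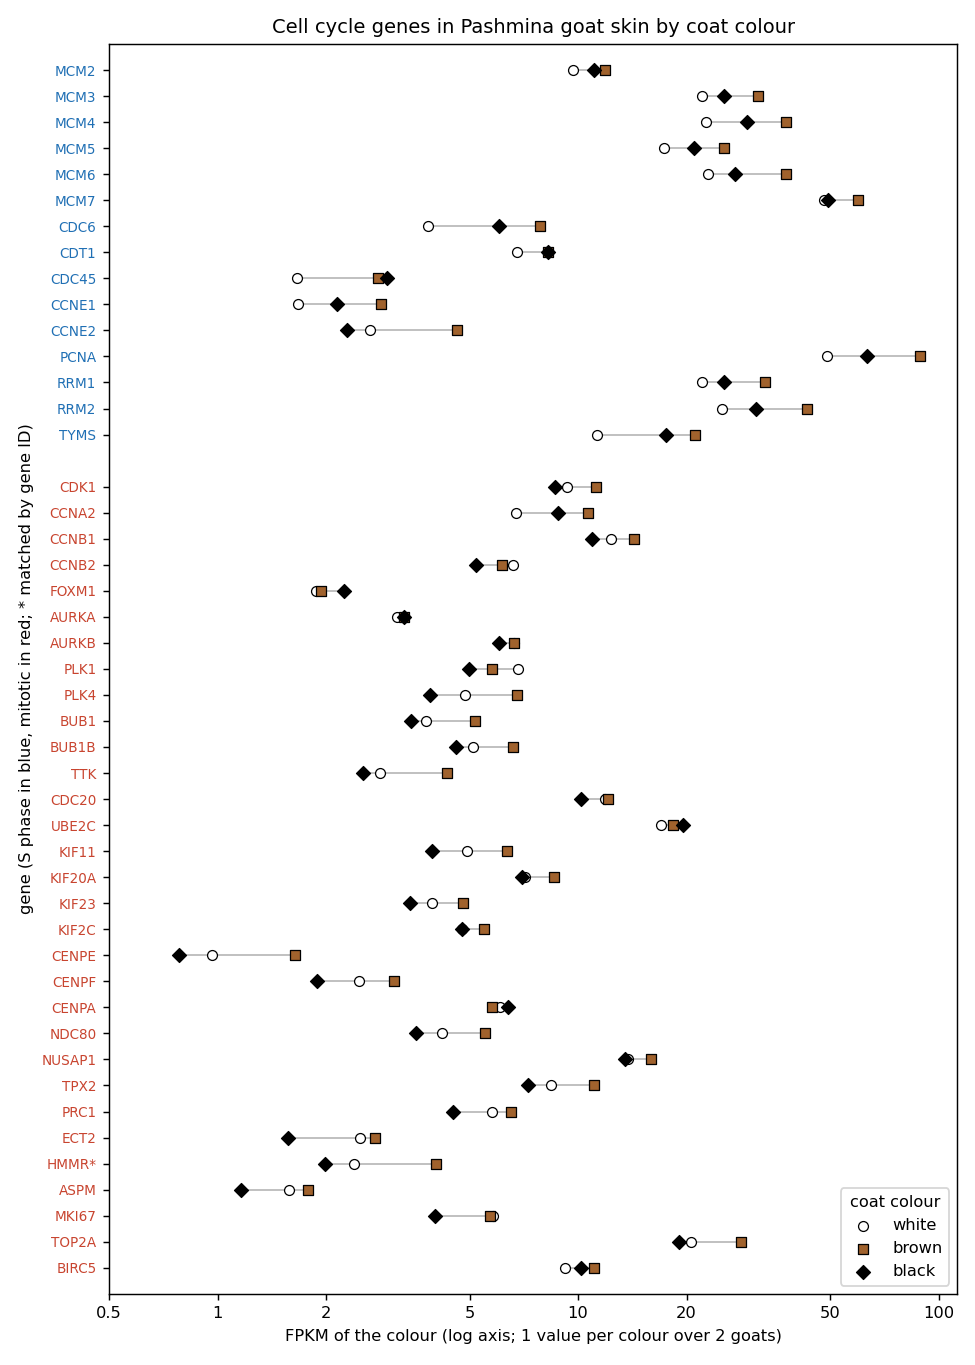
FPKM of the 45 members and of the locus matched to HMMR by gene ID (asterisk) in white (circles), brown (squares) and black (diamonds) skin on a log axis, with 1 value per colour over 2 goats and no error bars. Brown is the rightmost symbol for 14 of the 15 S phase genes, and white is the leftmost for 14 of them, whereas black is the leftmost for 23 of the 30 mitotic genes counted.

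The minichromosome maintenance proteins MCM2 to MCM7 form the ring-shaped helicase that opens the double helix at a replication fork. All 6 subunits had the order brown, black, white, which MCM2 lost on both scales and MCM7 on that of the reference genes. MCM7 was the highest of them, with 48.0 (white), 59.8 (brown) and 49.4 FPKM (black). The 4 subunits of intermediate level were MCM4 with 22.6, 37.7 and 29.5 FPKM in white, brown and black, MCM6 with 22.9, 37.7 and 27.2, MCM3 with 22.1, 31.5 and 25.4, and MCM5 with 17.3, 25.3 and 21.0. MCM2 was the lowest, with 9.65 (white), 11.9 (brown) and 11.0 FPKM (black). The log2 ratio of brown over white was largest for MCM4 (0.74) and MCM6 (0.72) and smallest for MCM2 (0.30) and MCM7 (0.32). Subunits of one ring thus differed in ratio, from 1.23-fold for MCM2 to 1.67-fold for MCM4.

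The loading and firing factors were lower in level and wider in range. CDC6, which with CDT1 loads the MCM ring on DNA, had 3.83 (white), 7.86 (brown) and 6.02 FPKM (black). Its log2 ratio of brown over white, 1.04 or 2.05-fold, was the largest of any member in that comparison and lay at percentile 98.1 of all loci compared. The CDC6 locus lies on chromosome 19 from 39712197 to 39723299 in the positions of the deposited table. CDC45, a cofactor of the active helicase, had 1.66 (white), 2.79 (brown) and 2.95 FPKM (black). It was the S phase gene with its highest level in black, and its white to black log2 ratio, -0.83, was the lowest of all members (percentile 2.96). CDT1 was at 6.75 (white), 8.27 (brown) and 8.26 FPKM (black), so brown and black were alike to the second digit.

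PCNA, the clamp that holds DNA polymerase on the template, had the highest mean level of the members, with 49.0 (white), 89.0 (brown) and 63.2 FPKM (black). Its locus lies on chromosome 13 from 45634909 to 45640498. The enzymes of nucleotide supply followed the same order. RRM2, the small subunit of ribonucleotide reductase whose level follows S phase, had 25 (white), 43.2 (brown) and 31.1 FPKM (black). The large subunit RRM1 had 22.0, 33.1 and 25.5 FPKM in the same order of colours. TYMS, which makes thymidylate, had 11.3 (white), 21.1 (brown) and 17.6 FPKM (black). Over these 4 genes the log2 ratio of brown over white ran from 0.59 (RRM1) to 0.90 (TYMS), and that of brown over black only from 0.27 (TYMS) to 0.49 (PCNA).

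The E cyclins activate CDK2 at the entry to S phase. CCNE1 had 1.67 (white), 2.84 (brown) and 2.14 FPKM (black). CCNE2 had 2.65 (white), 4.61 (brown) and 2.28 FPKM (black), and was the S phase gene that was not lowest in white. The paralogs were alike in brown over white, with log2 ratios of 0.76 and 0.80, and apart in brown over black, with 0.41 for CCNE1 and 1.02 for CCNE2. The CCNE2 locus spans 55311 bp and the CCNE1 locus 10827 bp, a difference that matters for ratios to black (below). Once loci of similar span were used as the zero, the white over black ratio of CCNE2 went from 0.22 to -0.19 and that of CCNE1 from -0.36 to -0.50.

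Mitotic entry is set by CDK1 with its A and B cyclins. CDK1 had 9.32 (white), 11.2 (brown) and 8.61 FPKM (black). CCNB1, its main partner in mitosis, had 12.3 (white), 14.3 (brown) and 10.9 FPKM (black). CCNB2 was at 6.58, 6.14 and 5.21 FPKM, so it was highest in white. CCNA2, a cyclin that acts in S phase as well as in G2, had 6.71 (white), 10.6 (brown) and 8.81 FPKM (black). It kept the S phase order of colours, with the lowest white over black ratio of the mitotic set (log2 -0.39) and a brown over white ratio of 0.67. FOXM1, the forkhead factor of the G2 programme, had 1.88 (white), 1.94 (brown) and 2.24 FPKM (black), the highest value in black.

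The geometric mean of the 4 mitotic kinases was 5.12 in white, 5.40 in brown and 4.42 FPKM in black. AURKA, the kinase of the spindle poles, had 3.14 FPKM in white and 3.29 in both brown and black skin. AURKB, the kinase of the chromosomal passenger complex, had 6.63 in white, 6.62 in brown and 6.02 in black. PLK1, which acts from mitotic entry to cytokinesis, was highest in white, with 6.80 FPKM against 5.76 in brown and 4.97 in black, and its log2 ratio of brown over white, -0.24, was the lowest of the members. PLK4, the kinase of centriole duplication, stood apart from the other 3 with 4.85 (white), 6.77 (brown) and 3.88 FPKM (black), a log2 ratio of brown over black of 0.80. Among the genes of the spindle checkpoint, the kinase TTK had 2.81 (white), 4.32 (brown) and 2.52 FPKM (black). BUB1 had 3.78, 5.19 and 3.44 FPKM and BUB1B 5.11, 6.59 and 4.59 in that order of colours. The factors that release the checkpoint through the anaphase-promoting complex varied less. CDC20, its activator, was at 11.8, 12.1 and 10.2 FPKM in white, brown and black, and the ubiquitin-conjugating enzyme UBE2C at 17.0, 18.3 and 19.5, highest in black.

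Motors, kinetochore and spindle genes included the largest ratio of brown over black in the set. The 4 kinesins were all highest in brown. KIF11, which pushes the spindle poles apart, had 4.91 (white), 6.34 (brown) and 3.93 FPKM (black), and KIF20A, a motor of cytokinesis, 7.14, 8.57 and 7.00. KIF23 of the central spindle had 3.93, 4.79 and 3.43 FPKM, and the microtubule depolymerase KIF2C 4.75, 5.49 and 4.78. CENPE, the kinetochore motor, was the lowest member in level, with 0.962 (white), 1.64 (brown) and 0.783 FPKM (black), and had the largest log2 ratio of brown over black, 1.06 or 2.09-fold. CENPF had 2.46 (white), 3.09 (brown) and 1.89 FPKM (black), and NDC80, which ties microtubules to the kinetochore, 4.18, 5.53 and 3.54. CENPA, the centromeric histone, went the other way with 6.08 (white), 5.76 (brown) and 6.39 FPKM (black), and was the only member lowest in brown. Its locus is also the shortest of the members, at 1423 bp.

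Of the spindle and midzone genes, TPX2 had 8.42 (white), 11.1 (brown) and 7.24 FPKM (black), and NUSAP1 13.7, 15.9 and 13.5. PRC1, which bundles the midzone, had 5.78, 6.52 and 4.48 FPKM in white, brown and black. ECT2, the exchange factor that starts the cleavage furrow, had 2.48 (white), 2.74 (brown) and 1.56 FPKM (black), and the largest white over black ratio of the members (log2 0.66). ASPM, a spindle pole protein, was at 1.58, 1.78 and 1.16 FPKM. The locus matched to HMMR by gene ID had 2.39 (white), 4.02 (brown) and 1.99 FPKM (black), with log2 ratios of brown over white and brown over black of 0.75 and 1.02. Of the proteins bound to mitotic chromosomes, TOP2A, which untangles sister DNA, had 20.5 (white), 28.3 (brown) and 19.1 FPKM (black). MKI67, the gene of the Ki-67 antigen used as a stain for cycling cells, had 5.82 (white), 5.71 (brown) and 4.02 FPKM (black). By this gene alone white and brown were alike, and black was lower by a log2 ratio of about 0.5 (white over black 0.53, brown over black 0.51), or of 0.29 and 0.30 relative to the median of all loci. BIRC5, the survivin gene, had 9.20 (white), 11.0 (brown) and 10.2 FPKM (black). CDC6 and TOP2A lie 78878 bp apart on chromosome 19, and their log2 ratios of white over black were -0.65 and 0.10.

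White and black skin were compared to see whether the S phase and the mitotic genes differed in the same way. The S phase members were lower in white at 14 of 15 genes, with a median log2 ratio of -0.29 (quartiles -0.38 and -0.20), whereas 68.9% of all compared loci were higher in white and their median was 0.24. The mitotic members were higher in white at 23 of 30 genes, with a median of 0.16 (quartiles 0.03 and 0.32), or 76.7% of genes against the 68.9% of all loci and a median below theirs. No member was 2-fold higher and none 2-fold lower in white than in black, against 9.49% and 2.05% of all loci. Past 1.5-fold, ECT2 was higher in white (1 of 45, against 25.8% of all loci), and CDC6, CDC45 and TYMS were lower (3 of 45 or 6.67%, against 5.71%). All 3 belong to the 15 S phase genes. Relative to the median of all loci the S phase median was -0.53 with all 15 genes below 0, and the mitotic median was -0.079 with 20 of 30 below 0, so that the sign of the mitotic set flips. On this scale CDC45 alone of the 45 was 2-fold lower in white (log2 -1.07), against 3.39% of all loci, and no member was 2-fold higher, against 5.19%. The difference between the sets does not depend on the scale of a library, since a factor common to all genes of a colour cancels. The mitotic median exceeded the S phase median by 0.46 on the log2 scale, and by 0.38 when loci of similar span served as the zero.

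Between brown and white skin, the S phase genes had the larger ratios. All 15 were higher in brown, with a median log2 ratio of 0.74 (quartiles 0.53 and 0.79), as were 25 of 30 mitotic genes with a median of 0.24 (quartiles 0.08 and 0.39), against 46.9% of all loci and a median of -0.03. Past 2-fold, CDC6 alone was higher in brown, 1 of 45 against 2.09% of all loci, and no member was lower, against 4.08%. Relative to the median of all loci the counts were again 1 (CDC6) and 0, against 2.33% and 3.81%. Just inside the threshold was CDC6 with a log2 ratio of 1.04, and just outside were TYMS with 0.90 and PCNA with 0.86. Past 1.5-fold, 13 members were higher in brown (28.9%, against 7.62% of all loci) and none lower (against 11.6%). They were 10 of the 15 S phase genes (66.7%), MCM4, MCM6, CDC6, CDC45, CCNE1, CCNE2, PCNA, RRM1, RRM2 and TYMS, and 3 of the 30 mitotic genes, CCNA2, TTK and CENPE. The 5 members lower in brown, all mitotic, were PLK1, CCNB2, CENPA, MKI67 and AURKB, with log2 ratios between -0.24 and 0.00. With the reference genes as the scale the S phase median was 0.58 with all 15 genes above 0, and the mitotic median 0.080 with 20 of 30 above 0.

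Brown and black skin differed about equally in the 2 sets. The S phase median was a log2 ratio of 0.35 with 14 of 15 genes higher in brown, and the mitotic median 0.43 with 26 of 30 higher, against 71.3% of all loci and a median of 0.21. Past 2-fold, CCNE2 (1.02) and CENPE (1.06) were higher in brown, 2 of 45 against 3.12% of all loci, and no member was lower, against 1.02%. With 0.1 added to each FPKM neither gene reached 2-fold. Relative to the median of all loci no member was past 2-fold in either direction, against 1.60% and 1.62% of loci. Past 1.5-fold, 11 members were higher in brown (24.4%, against 16.8% of all loci) and none lower (against 3.18%), 1 S phase gene, CCNE2, and 10 mitotic genes, PLK4, BUB1, TTK, KIF11, CENPE, CENPF, NDC80, TPX2, ECT2 and ASPM.

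**Figure D2:**
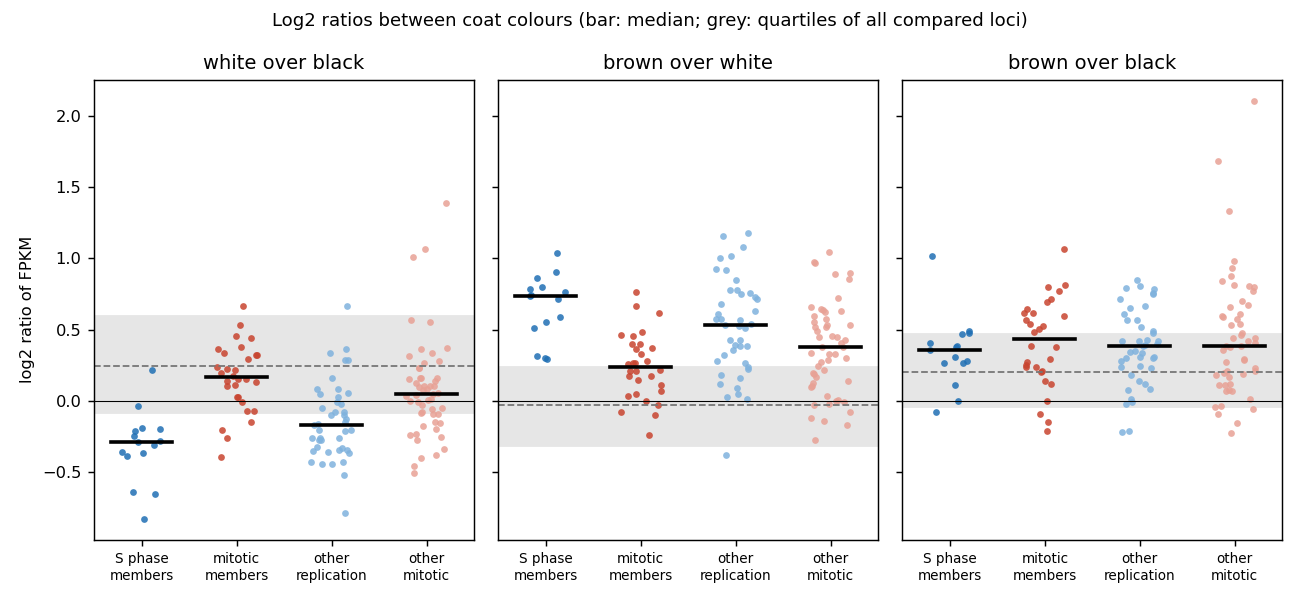
Log2 ratios of FPKM for the S phase (15) and mitotic (30) members and for other replication (43) and other mitotic (53) genes, 1 point per gene, in the 3 comparisons. Black bars are medians, the grey band spans the quartiles of all compared loci and the dashed line is their median. In white over black the S phase median of -0.29 lies below the band and the mitotic median of 0.16 within it, and in brown over white the S phase median of 0.74 lies above the band.

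The ratios to black moved with the span of the locus, its genomic length in the table, introns counted. Over all loci the median log2 ratio of white over black was 0.02 in the bin of loci with a median span of 7793 bp and 0.52 in the bin with a median of 97135 bp, and that of brown over black was 0.02 and 0.48. Between brown and white the medians of these bins were -0.01 and -0.02. In the bin of the longest loci, with a median span of 285152 bp, the medians were 0.86, 0.64 and -0.23 in white over black, brown over black and brown over white. Across the 45 members Spearman's rho of span was 0.48 with the ratio of white over black, 0.68 with that of brown over black and 0.18 with that of brown over white, and across the 30 mitotic members 0.50, 0.78 and 0.52. Genes are not independent replicates, and these values are descriptions. The mitotic loci had a median span of 21900 bp and the S phase loci one of 13252 bp. Of the 10 mitotic genes past 1.5-fold in brown over black, 9 span at least 33361 bp. With the median ratio of similarly long loci as the zero, the mitotic median of brown over black went from 0.43 to 0.25 and that of white over black from 0.16 to -0.067. The S phase medians became 0.18 and -0.45, with all 15 genes below 0 in white over black. Among loci of up to 20 kb, a limit chosen after the values were seen, the 12 S phase genes had a median of -0.33 and the 15 mitotic genes one of 0.028 in white over black, against 0.08 over all such loci. In brown over white the same genes had medians of 0.74 and 0.17, against -0.02. What sets the relation of the ratio to span was not tested.

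**Figure D3:**
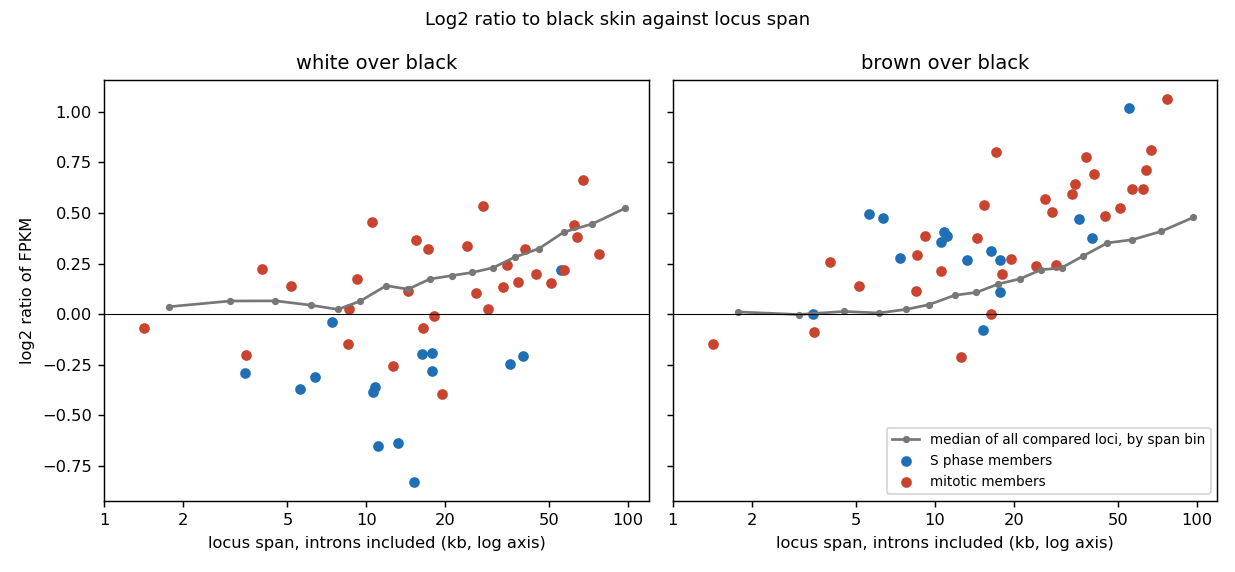
Log2 ratio of FPKM of white over black (left) and brown over black (right) against locus span in kb on a log axis, for the S phase (blue) and mitotic (red) members. The grey line joins the medians of all compared loci in bins of span and rises with span in both comparisons. In white over black the S phase points lie below the grey line over the whole range.

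The level of each set in a colour was also summarised by the geometric mean of its FPKM. For the S phase genes it was 11.2 (white), 17.7 (brown) and 13.9 FPKM (black), and for the mitotic genes 5.37, 6.37 and 4.80 FPKM in that order. The ratio of S phase to mitotic level, in which any scaling of a library cancels, was 2.08 in white, 2.78 in brown and 2.91 in black. Brown and black thus had about the same balance of replication to mitotic transcripts, at a higher level in brown, and white had a lower one.

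Other genes of the same processes, which are not members, were examined with a list for each. Of 43 other replication genes compared, 32 were lower in white than in black with a median log2 ratio of -0.17, and 42 were higher in brown than in white with a median of 0.53. Past 2-fold 4 of the 43 were higher in brown than in white and none lower, against 2.09% and 4.08% of all loci. ORC1, the origin recognition subunit, had 3.04 (white), 6.88 (brown) and 5.26 FPKM (black). DTL, which marks CDT1 for destruction in S phase, had 2.31, 5.14 and 2.93 FPKM, and the checkpoint kinase CHEK1 4.78, 10.1 and 6.16. The most abundant of the list, DUT, which keeps uracil out of DNA, had 59.2, 88.5 and 71.8 FPKM, and RPA1, which coats single-stranded DNA, 42.8, 56.0 and 44.3. Of 53 other mitotic genes, white exceeded black at 32 and fell below it at 21 (median 0.05), and 44 were higher in brown than in white (median 0.38). Over all loci 68.9% were higher in white than in black (median 0.24), and 46.9% were higher in brown than in white (median -0.03). The medians of the lists were alike in brown over black, 0.39 for each. The other mitotic genes were lowest in black at 30 of 53 (56.6%, against 56.1% of all loci) and in white at 20. The other replication genes were lowest in white at 32 of 43. With the median of all loci subtracted, white was lowest at 39 of the 53 mitotic genes and black at 11. With the reference genes subtracted instead, black was lowest at 31 and white at 12. The difference between mitotic and replication genes was smaller here than among the members, 0.05 against -0.17 in white over black, and the ratio of the geometric means of replication to mitotic genes was 1.63 in white, 1.78 in brown and 1.88 in black. With the median of all loci subtracted the white over black medians were -0.41 for replication and -0.20 for mitotic genes. The highest mitotic genes of the list, STMN1 and HMGB2, had 94.9, 104 and 85 FPKM and 60.7, 66.3 and 50.1 FPKM in white, brown and black.

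Other regulators of the cycle did not share one pattern. A list of 26 genes held G1 cyclins, their kinases, pocket proteins and E2F factors with their partners. It also held CDC25A, LIN9, LIN37, LIN52, LIN54, MYC, MYCN and MYBL2, the last a factor of the G2 programme. In this mixed list white exceeded black at 15 and fell below it at 11 (median 0.22). In brown 20 were higher than in white (median 0.12). Of all loci 68.9% were higher in white than in black (median 0.24), and 46.9% were higher in brown than in white (median -0.03). CDK4, the kinase of the D cyclins, had 52.0 FPKM in white and 71.6 in both brown and black, the white level being the low one as for the S phase genes. CCND2 had 57.9 (white), 58.3 (brown) and 43.0 FPKM (black). CDK6 had 6.00, 6.01 and 2.99 FPKM, past 2-fold in both ratios to black, and after the subtraction for span its log2 ratios to black were 0.15 for white and 0.37 for brown. TFDP2, the partner of E2F factors, had 8.89, 6.54 and 3.74 FPKM. Of 24 inhibitors of the cycle and genes of quiescence, 14 (58.3%) were highest in white, against 47.1% of all loci. Their median log2 ratio was 0.45 in white over black, 0.20 relative to all loci, and -0.30 in brown over white, where 16 of 24 were lower in brown. Past 2-fold 5 were higher in white than in black (20.8% of the 24, against 9.49% of all loci) and none lower. Relative to the median of all loci 1 of the 24 was higher past 2-fold, which is no more than the 5.19% of all loci. TXNIP, an arrestin-like protein that limits glucose uptake, had 672 (white), 343 (brown) and 288 FPKM (black). CCNG2, a cyclin found in cells that leave the cycle, had 12.8, 8.20 and 4.64 FPKM, and CDKN2B, an inhibitor of CDK4 and CDK6, 17.6, 14.4 and 7.67. BTG1, an antiproliferative factor, had 377, 298 and 279 FPKM.

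Markers of the cell types that divide in skin were set beside these values. A list of 20 hair follicle genes of the matrix, cortex and inner root sheath had 14 found. Against 47.1% of all loci, all 14 were highest in white, and none was at 0. Their geometric mean was 84.1 (white), 46.7 (brown) and 36.4 FPKM (black), and their sums of 8405, 5107 and 4451 FPKM were mostly those of the inner root sheath genes KRT25, KRT27 and TCHH. Among them SHH, the signal of the follicle matrix, had 4.64 (white), 2.39 (brown) and 1.29 FPKM (black), FOXN1 47.9, 21.7 and 14.7, MSX1 10.4, 4.85 and 3.59, and KRT25 3390, 2011 and 2037. The list was thus lower in brown than in white at 14 of 14 genes (median log2 ratio -0.82), while the S phase members were higher at 15 of 15. Of all loci 46.9% were higher in brown than in white, with a median of -0.03. The 11 basal epidermis markers found of 12 were all lowest in black, as were 56.1% of all loci, and 6 were highest in white and 5 in brown. Their geometric mean was 97.1 (white), 97.9 (brown) and 60.5 FPKM (black), and their sums of 17608, 22264 and 13515 FPKM were mostly those of KRT14 (8995, 12437 and 7238 FPKM) and KRT5. KRT6A, a keratin of stressed and hyperproliferative epidermis and the 1 gene found of its list of 5, followed the S phase order with 1023 (white), 1719 (brown) and 1479 FPKM (black). The 8 sebaceous gland markers had sums of 375, 314 and 326 FPKM, but they did not share an order of colours. Of the 7 with a mean FPKM of at least 1, 3 were highest in white, 3 in brown and 1 in black. Of immune cells, 10 T cell markers summed to 36.0, 21.0 and 27.0 FPKM, 8 B cell and plasma cell markers to 4.38, 8.79 and 4.41, 8 macrophage and dendritic cell markers to 140, 98.9 and 119, and 8 neutrophil markers to 87.9, 566 and 1888, most of which in black was S100A8 (912 FPKM), S100A9 (455) and S100A12 (491). Of the other neutrophil markers CSF3R was highest in black, as was CXCR2 by a small margin (8.61 in brown and 8.64 FPKM in black). ELANE and MPO were highest in white, where MPO had only 0.173 FPKM, and LCN2 was highest in brown. The 8 melanocyte markers summed to 33.3, 73.0 and 61.3 FPKM, with 6 lowest in white, among them TYRP1 at 0.120 FPKM, and 2 highest in white, KIT and MITF. The 8 genes found of a follicle stem cell list summed to 209, 204 and 147 FPKM. They include TCF3 and TCF4, matched by symbol alone, and whether these are the follicle factors of those names was not checked. TCF4 had 16.0 (white), 15.3 (brown) and 7.70 FPKM (black). The 6 endothelial markers summed to 79.8, 74.6 and 62.9 FPKM, and 6 fibroblast markers to 2460, 2051 and 1561. These sums hide genes that go other ways. At a mean FPKM of at least 1, 5 of 7 stem cell genes were highest in white and 2 in brown. Of 8 macrophage and dendritic cell markers 5 were highest in white, 1 in brown and 2 in black. The endothelial markers were highest in white at 3, in brown at 2 and in black at 1. For the fibroblast markers the counts were 4 in white and 2 in brown. No marker found was at 0 in all colours. The part of these cell types in the levels of the cell cycle genes was not tested.

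**Figure D4:**
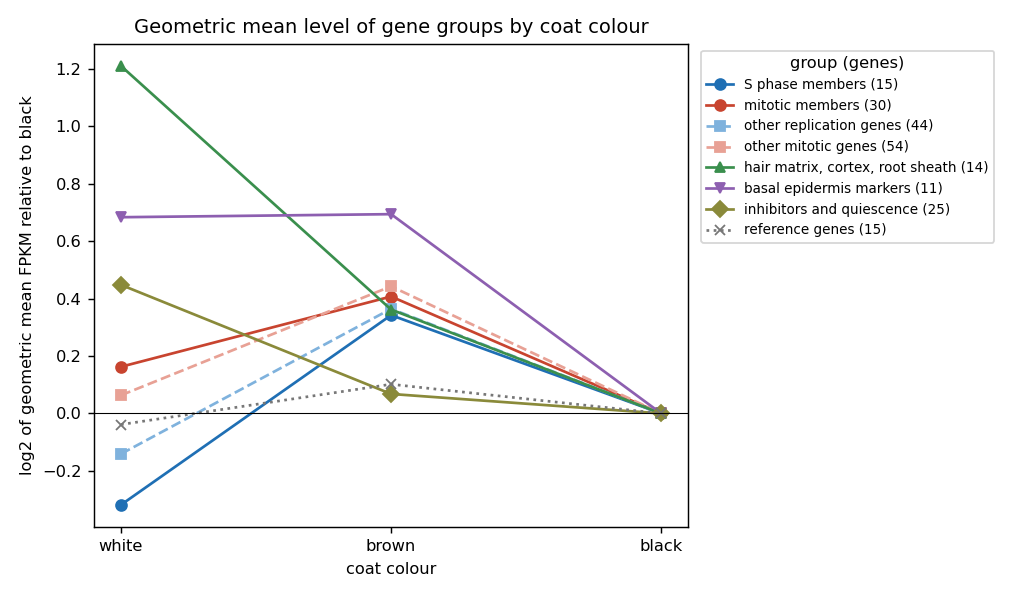
Geometric mean FPKM of gene groups in white, brown and black skin, as log2 relative to black, with the number of genes above 0 in all colours in parentheses and no error bars, since there is 1 value per colour. The S phase members are lowest in white and highest in brown, and the hair follicle genes of the matrix, cortex and inner root sheath are highest in white.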

How the data were processed

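Skin of 2 white, 2 brown and 2 black goats was compared. Per the labels, poly(A) RNA was made into libraries. According to the methods of the study, these were sequenced as paired ends, reads were aligned to the NCBI goat genome with TopHat and Bowtie2 (version 2 in the submitters' processing notes), with all positions of multiply mapped reads reported, and genes were measured with Cufflinks and CuffDiff, so near-identical gene copies can share reads. The deposited FPKM values were made by the authors, 1 per colour, and the value of a colour was the same in both of its comparisons (largest difference 0). How libraries were scaled, and the genome build, are not given in the sources used here. The table also holds the authors' fold changes, test statistics, p-values and q-values, which were not used.

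Log2 ratios used no pseudocount (0), a mean FPKM of at least 1 and a threshold of 2-fold, the fold of the study's methods. Scales with the median of all compared loci, of 15 reference genes or of loci in 20 bins of span subtracted were also run. Members and the 17 gene lists were chosen with earlier results of these data known. All 46 members are named. Genes named from a list for their values are among its 3 largest ratios past 2-fold per comparison and its 2 of highest level. The exceptions are TCHH, MITF, CSF3R, CXCR2, ELANE, MPO, LCN2, MZB1 and BLK, which were chosen after their values were seen. Symbols were matched to a RefSeq goat table (ARS1.2), used for gene IDs and for the chromosome that most names of a sequence share. Starts were counted from 1. The ratio step was checked on simulated data. Python 3.11.15, pandas 2.3.3 and scipy 1.17.1 were used.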

Additional observations from a re-analysis of the deposited data

How the results depend on the processing

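No paired analysis was possible because the table holds 1 value per colour and no value per goat, and for the same reason no goat could be left out. The 15 summaries (members past the threshold and set medians) were recomputed under 10 alternatives, some of which applied to only part of them. Of the values so obtained, 95 kept their sign and lay within 0.1 of the log2 ratio given, or within 1.5 times the count. A further 30 lay outside these limits, and 4 changed sign. Past 2-fold, the 2 genes higher in brown over black became 0 with 0.1 or 1 added to each FPKM, with a mean FPKM of at least 5 and on all 3 other scales, and the 1 gene of brown over white became 0 with 1 added and with the reference genes. With the median of all loci subtracted, 1 gene was lower in white over black. At 1.5-fold the counts were 1 higher and 3 lower in white over black, 13 higher in brown over white and 11 higher in brown over black. With the median of all loci subtracted, the S phase and mitotic medians were -0.53 and -0.079 in white over black, where the mitotic sign turned, and 0.15 and 0.23 in brown over black. With loci of similar span they were -0.45 and -0.067, again with a turned mitotic sign, and 0.18 and 0.25. With the reference genes they were -0.19 and 0.27 in white over black, 0.58 and 0.080 in brown over white and 0.21 and 0.29 in brown over black. With 1 added, the S phase median of brown over white was 0.56 and the mitotic minus S phase difference -0.35. In brown over black, the mitotic median was 0.28 at a mean FPKM of at least 5 (20 mitotic and 12 S phase genes) and 0.21 at loci of up to 20 kb, an alternative chosen after seeing the data, and the mitotic minus S phase difference of 0.08 turned to -0.050 and -0.081. At those loci the mitotic median of white over black was 0.028. The difference between the sets kept its sign in white over black and in brown over white under every alternative run. The 1-value design and the unknown depth limit low genes such as CENPE most.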

Other observations

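Among the other mitotic genes, 3 of 53 were past 2-fold in white and in brown over black, against 9.49% and 3.12% of all loci, and all 3 were of low level. CENPK, a kinetochore subunit, had 1.23 (white), 2.53 (brown) and 0.588 FPKM (black), and was higher in brown than in white as well, with a log2 ratio of 1.04. DEPDC1 had 1.25, 1.54 and 0.479 FPKM, and the kinesin KIF18A 1.25, 1.57 and 0.622 FPKM. With similarly long loci as the zero, their log2 ratios of brown over black were 1.82 for CENPK, 1.54 for DEPDC1 and 0.93 for KIF18A, and of white over black 0.78, 1.21 and 0.56.

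Some paralogs among the members differed in their order of colours, while MCM2 to MCM7 shared an order, as did BUB1 and BUB1B. CCNB2 was highest in white and CCNB1 in brown, and PLK1 was highest in white and PLK4 in brown. JCHAIN, the joining chain of secreted antibodies, was the largest part of the B cell and plasma cell sum in brown, with 0.987 (white), 4.96 (brown) and 1.20 FPKM (black). At levels below 1 FPKM, MZB1 was also highest in brown (0.0640, 0.919 and 0.133 FPKM), as was BLK. The other genes of that list were highest in white or black.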
